A study of Mus musculus with 18 samples.

Results

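The 38 genes described here form the unfolded protein response and the ATF4 stress response, and they were taken from a fixed list of symbols, all of which were present among the 22852 gene rows of the count files. They were split into an ATF4 arm of 20 genes (ATF4, its partners and its amino acid and one-carbon targets) and an ER arm of 18 genes (the sensors of the endoplasmic reticulum and the chaperones they control). After the filter on low counts, 36 of the 38 genes were among the 11305 genes tested, 18 in each arm. Chac1, a glutathione-degrading enzyme, had at most 5 reads in every sample but LPS-tolerant replicate 1 (21 reads) and replicate 1 of its carboplatin-treated counterpart (8 reads), and Pycr1, a proline-synthesis enzyme, had at most 4 reads in any sample, so neither was tested.

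RNA was sequenced from 18 cultures of bone marrow-derived macrophages (BMDMs) of female C57BL/6 mice, differentiated in medium conditioned by L929 cells, as 6 groups of 3 biological replicates. These comprised BMDMs left unstimulated, BMDMs given a single dose of LPS (10 ng/ml, 3 h; "LPS-stimulated"), BMDMs given 100 ng/ml LPS for 24 h ("LPS-primed"), BMDMs primed in the same way and then given 10 ng/ml LPS in fresh medium for 3 h ("LPS-tolerant"), and LPS-primed and LPS-tolerant BMDMs exposed to 25 µM carboplatin from 1 h before priming. The LPS was from Salmonella, and the harvest time of the unstimulated cells is not given in the sources used here. LPS-tolerant cells also differ from LPS-primed cells by the change of medium and by 3 h of culture, and LPS-primed cells differ from LPS-stimulated cells in both dose and time, so these cannot be told apart from the effect of LPS itself.

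The unfolded protein response is set off when misfolded proteins accumulate in the endoplasmic reticulum (ER). Of its sensors, IRE1 (encoded by Ern1) splices Xbp1 mRNA into the form that encodes an active transcription factor, ATF6 is cut to release another factor, and PERK (Eif2ak3) phosphorylates the translation factor eIF2 alpha, which slows translation overall but favours that of ATF4. The XBP1 and ATF6 proteins induce chaperones, foldases and degradation factors, whereas ATF4, which is also reached by kinases outside the ER that sense amino acid shortage or other stress, induces amino acid transporters, synthetic enzymes and the regulator CHOP (Ddit3). The values below are mRNA levels of whole genes: Xbp1 splicing and the translation of ATF4 were not measured.

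The promoters of the arms differed in sequence. In the window from 250 bases before to 50 after the annotated start (GRCm39, GENCODE vM39), the ER stress element (ERSE; CCAAT and CCACG with 9 bases of any kind between them) was found on either strand in 7 of 18 ER arm genes, against 24 of 19160 promoters in all (0.125%), and in none of the 20 ATF4 arm genes. A second form (ERSE-II; ATTGG and CCACG with 1 base of any kind between them) was found in 3 further ER arm genes and in 14 promoters in all (0.0731%). The ERSE matches are shown with 10 bases on either side, read on the strand that gives the element in this orientation, with its fixed letters in capitals. They are shown because 8 of these 10 genes rose after priming, against 12.1% of all tested genes. The ER arm is a fixed list that includes textbook examples of the element. These shares therefore cannot show whether the element goes with a rise, which was not tested. Of 14 tested genes outside both arms that hold either element, 4 rose after priming and 1 fell.

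Hspa5, chr2:34662027-34662065, plus strand: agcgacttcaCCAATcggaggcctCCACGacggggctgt
Calr, chr8:85573694-85573732, plus strand: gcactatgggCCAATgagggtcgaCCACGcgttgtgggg
Pdia6, chr12:17316482-17316520, plus strand: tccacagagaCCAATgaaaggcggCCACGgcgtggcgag
Hsp90b1, chr10:86541387-86541425, plus strand: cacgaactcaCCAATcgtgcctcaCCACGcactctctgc
Dnajc3, chr14:119175229-119175267, plus strand: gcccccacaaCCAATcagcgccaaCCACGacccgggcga
Creld2, chr15:88703713-88703751, minus strand: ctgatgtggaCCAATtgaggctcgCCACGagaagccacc
Canx, chr11:50216617-50216655, minus strand: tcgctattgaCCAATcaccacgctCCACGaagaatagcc

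The ERSE-II matches were in Hyou1, Manf and Herpud1, and their fixed letters are again in capitals.

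Hyou1, chr9:44290651-44290681, minus strand: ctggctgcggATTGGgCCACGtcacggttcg
Manf, chr9:106769228-106769258, plus strand: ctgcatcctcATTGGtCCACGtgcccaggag
Herpud1, chr8:95112995-95113025, plus strand: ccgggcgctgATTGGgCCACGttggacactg

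Hsp90b1 and Hyou1 each held a further match. The element TGACGTGG, an XBP1 site, was in 1 member (Hyou1, where it overlaps the ERSE-II match shown) and in 0.772% of promoters. The ATF4 element TGATGNAA was in 4 of 20 ATF4 arm genes (Chac1, Ddit3, Pycr1 and Vldlr), in 1 ER arm gene (Herpud1) and in 634 promoters in all (3.31%). It is shown for Ddit3 and Herpud1, with its fixed letters in capitals. They were picked after their values were seen, because their log2FC had opposite signs after a single dose of LPS (-1.19 and 0.81). The call of Herpud1 was lost in 4 of the 6 fits that left out 1 sample.

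Ddit3, chr10:127126351-127126378, minus strand: ggggcggggaTGATGcAAtgtttggcaa
Herpud1, chr8:95112935-95112962, minus strand: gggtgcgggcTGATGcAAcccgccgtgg

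For Hspa5, the member with the most reads in any sample, the 150 bases before the start (chr2:34661954-34662103, plus strand) show where the match lies, 67 to 49 bases before it; capitals again mark the fixed letters of the match.

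Hspa5 promoter: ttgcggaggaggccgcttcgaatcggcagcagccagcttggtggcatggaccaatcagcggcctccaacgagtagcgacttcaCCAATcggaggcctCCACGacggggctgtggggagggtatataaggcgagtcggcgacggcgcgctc

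Gene counts summed to between 6869667 and 14708099 in a sample. All 10 macrophage markers were detected in every group, with sums between 153932 and 313723 normalized counts per sample (at most 192516 in unstimulated and LPS-stimulated BMDMs and at least 228574 in the other groups), and all 5 LPS response genes examined were higher after a single dose and after priming. Neutrophil, T and NK cell and dendritic cell markers summed to at most 13.8 normalized counts in any sample. The 6 B cell markers summed to between 267 and 1560 in unstimulated and between 71.6 and 271 in LPS-stimulated BMDMs but to at most 12.7 in the other groups, mostly through Ighm, while Ms4a1 and Pax5 were at 0 in unstimulated BMDMs. The 5 stromal markers, mainly Dcn, summed to at most 3.64 in unstimulated and at most 75.2 in the other BMDMs. The part of these markers in the comparisons was not tested.

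The members ranged widely in level. Per kilobase of the canonical transcript, the mean over all samples was highest for the calcium-binding chaperone Calr (6699 normalized counts per kb), followed by Hsp90b1 (4276) and Hspa5 (2741), both of them general ER chaperones. The amino acid transporter subunit Slc3a2 (1916) and Atf4 itself (1490) came next and were the highest of the ATF4 arm. The lowest tested members were Vldlr (0.903), a lipoprotein receptor, Slc7a1 (6.87), the cationic amino acid transporter, and Phgdh (9.93), the first enzyme of serine synthesis.

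**Figure D1:**
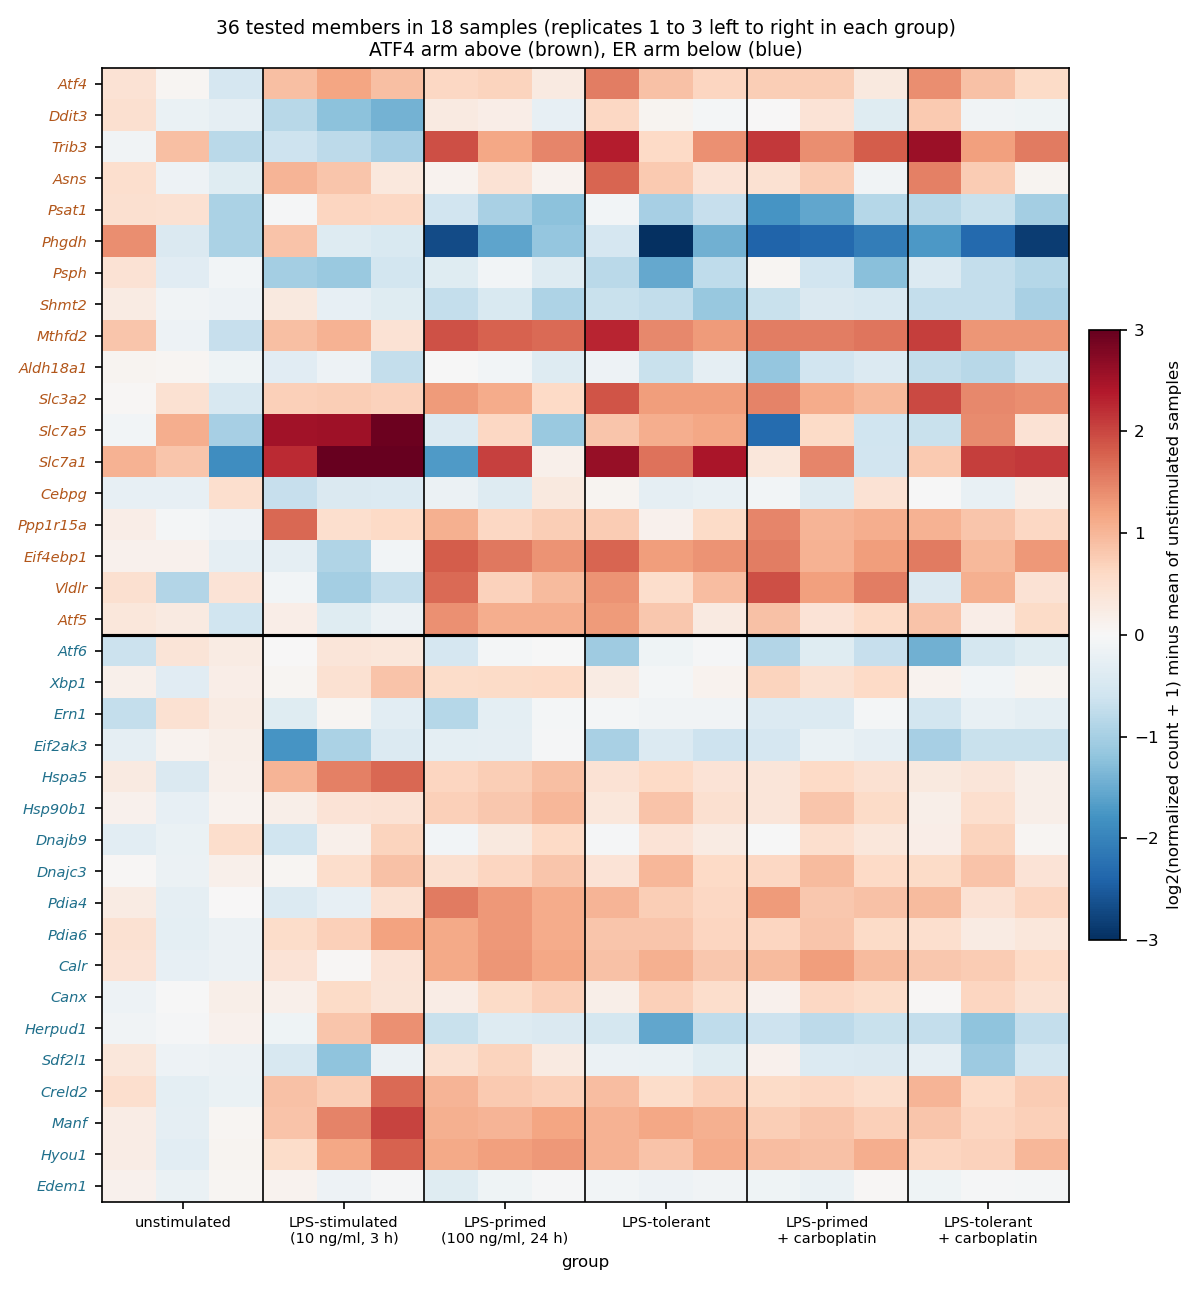
Heat map of the 36 tested members (rows, ATF4 arm above and ER arm below) in the 18 samples (columns, replicates 1 to 3 from left to right in each group); colour is log2(normalized count + 1) minus the mean of the 3 unstimulated samples, cut at ±3. The chaperone block of the ER arm is red in the LPS-primed and LPS-tolerant columns, and Slc7a5 and Slc7a1 are darkest in the LPS-stimulated columns.

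After a single dose of LPS (10 ng/ml, 3 h), Hspa5, Manf and Hyou1 of the ER arm and Atf4 and the amino acid transporters of the ATF4 arm were higher, and Ddit3 was lower. In the ER arm, 8 of 18 genes rose and 1 fell, and in the ATF4 arm 5 of 18 rose and 2 fell. Of all genes tested, 24.3% rose and 26.9% fell (51.2% in either direction). With both directions counted together, neither arm held a larger share of calls than all genes. With library size alone as the scaling, which moved the median of all genes by -0.34, the counts were 5 higher and 3 lower in the ER arm and 4 higher and 6 lower in the ATF4 arm. The median log2FC was 0.35 in the ER arm and -0.12 in the ATF4 arm, against -0.09 over all genes. In bulk RNA, a change in the number of cells that express a gene and a change in the RNA per cell cannot be told apart.

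In the ER arm, Hspa5, which encodes BiP, the chaperone that also holds the sensors inactive, was at 10427, 6414 and 9539 normalized counts in unstimulated replicates 1 to 3 and at 17466, 24628 and 28521 in the LPS-stimulated replicates. Every stimulated sample was above every unstimulated one, at 2.68-fold (log2FC 1.42, SE 0.19, adjusted p = 8.87e-06 in edgeR's quasi-likelihood test). Manf, a secreted ER-resident factor that protects cells from ER stress, rose from 760, 539 and 685 to 1181, 1834 and 2653 (log2FC 1.51, SE 0.21, adjusted p = 1.47e-05). Hyou1, a large ER chaperone, was at 775, 529 and 697 without LPS and at 966, 1465 and 2236 with it (log2FC 1.22, SE 0.22, adjusted p = 0.000242). Neither gene's groups overlapped, and for all 3 genes stimulated replicate 3 was the highest and replicate 1 the lowest of the stimulated samples. Reads of Manf cannot be told apart from those of Rbm15b where the 2 genes overlap on the same strand.

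Creld2, a chaperone-like disulfide isomerase, rose by 1.13, and Pdia6, another disulfide isomerase, by 0.81 on the log2 scale. Herpud1, which takes part in ER-associated degradation, rose by 0.81, Dnajc3, a co-chaperone of BiP, by 0.52, and Xbp1 by 0.48. The calls of the last 3 were less stable. Herpud1 was at 380, 402 and 449 before and 377, 726 and 1060 after LPS, so that stimulated replicate 1 lay below every unstimulated sample. The calls of Herpud1 and Dnajc3 were lost without unstimulated replicate 1 or 2 or LPS-stimulated replicate 2 or 3, with log2FC values over all single-sample omissions of 0.43 to 1.12 for Herpud1 and 0.31 to 0.71 for Dnajc3, the lowest of each without LPS-stimulated replicate 3. That of Xbp1 was lost without unstimulated replicate 2 or LPS-stimulated replicate 2 or 3 (0.26 to 0.66, the lowest again without LPS-stimulated replicate 3).

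Among the sensors, Eif2ak3 (PERK) fell, from 345, 451 and 473 to 123, 218 and 313 normalized counts (log2FC -0.95, SE 0.25, adjusted p = 0.00455), with no overlap of the groups. Xbp1 was at 1281, 910 and 1331 without LPS and at 1204, 1595 and 2099 with it, which overlap. Atf6 was at 233, 478 and 434 and then at 366, 472 and 464 (log2FC 0.19, 95% interval -0.41 to 0.79). Ern1 was at 188, 427 and 365 and then at 239, 322 and 247 (log2FC -0.28, 95% interval -0.77 to 0.22). Neither Atf6 nor Ern1 passed the test, and for both the stimulated samples lay within the range of the unstimulated ones. Of the 4 sensors and factors 1 rose and 1 fell, whereas 7 of the 14 chaperones, foldases and degradation factors rose and none fell. Of all tested genes, 24.3% rose and 26.9% fell. The abundant chaperones Calr (log2FC 0.27), Hsp90b1 (0.33) and Canx (0.37) and the isomerase Pdia4 (-0.03) did not pass. With the replicate block, Canx was called as higher (0.36, adjusted p = 0.00483) and Sdf2l1, a co-chaperone, as lower (-0.58, adjusted p = 0.0214).

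In the ATF4 arm, the largest log2FC belonged to amino acid transporters. Slc7a1 was at 26.8, 23.0 and 2.73 normalized counts in unstimulated and at 63.2, 148 and 176 in LPS-stimulated BMDMs (log2FC 2.88, SE 0.77, adjusted p = 0.00506). Slc7a5, the light chain of the large neutral amino acid transporter, was at 16.3, 37.7 and 8.18 and rose to 104, 105 and 139 (log2FC 2.47, SE 0.61, adjusted p = 0.00300). The groups did not overlap for either gene. Slc3a2, the heavy chain that pairs with Slc7a5, rose by 0.67 (SE 0.25), though it was called in 1 of the 6 fits that left out a sample, the one without unstimulated replicate 2 (0.48 to 0.94 over the 6).

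Atf4 was at 2086, 1615 and 1086 normalized counts without LPS and at 2880, 3484 and 2880 with it (log2FC 0.95, SE 0.26, adjusted p = 0.00620), so all stimulated samples were higher. Ddit3, which encodes the pro-apoptotic factor CHOP and is a target of ATF4, moved the other way, from 442, 272 and 260 to 177, 134 and 116 (log2FC -1.19, SE 0.30, adjusted p = 0.00316), again with no overlap. Ddit3 overlaps Mars1 on the opposite strand, and whether counting used the strand is not given in the sources used here. Ppp1r15a, which encodes GADD34, the phosphatase subunit that reverses eIF2 alpha phosphorylation, rose by 1.04 (SE 0.27); replicate 1 of the stimulated samples was far above the others (1270 against 551 and 585), and the log2FC was 0.55 without it, still past the test. Psph, the last enzyme of serine synthesis, fell by 0.93, a call lost without unstimulated replicate 1 or 3 or LPS-stimulated replicate 1 or 2 (-1.13 to -0.66). With the replicate number as a block, 11 of 18 ATF4 arm genes were called instead of 7 (7 higher and 4 lower). The block called 3331 of all 11305 tested genes as higher and 3817 as lower. Asns, asparagine synthetase (0.73), and Mthfd2, a mitochondrial one-carbon enzyme (0.76), were added as higher. Cebpg, a partner of ATF4 (-0.51), and Eif4ebp1, a repressor of translation initiation (-0.41), were added as lower.

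**Figure D2:**
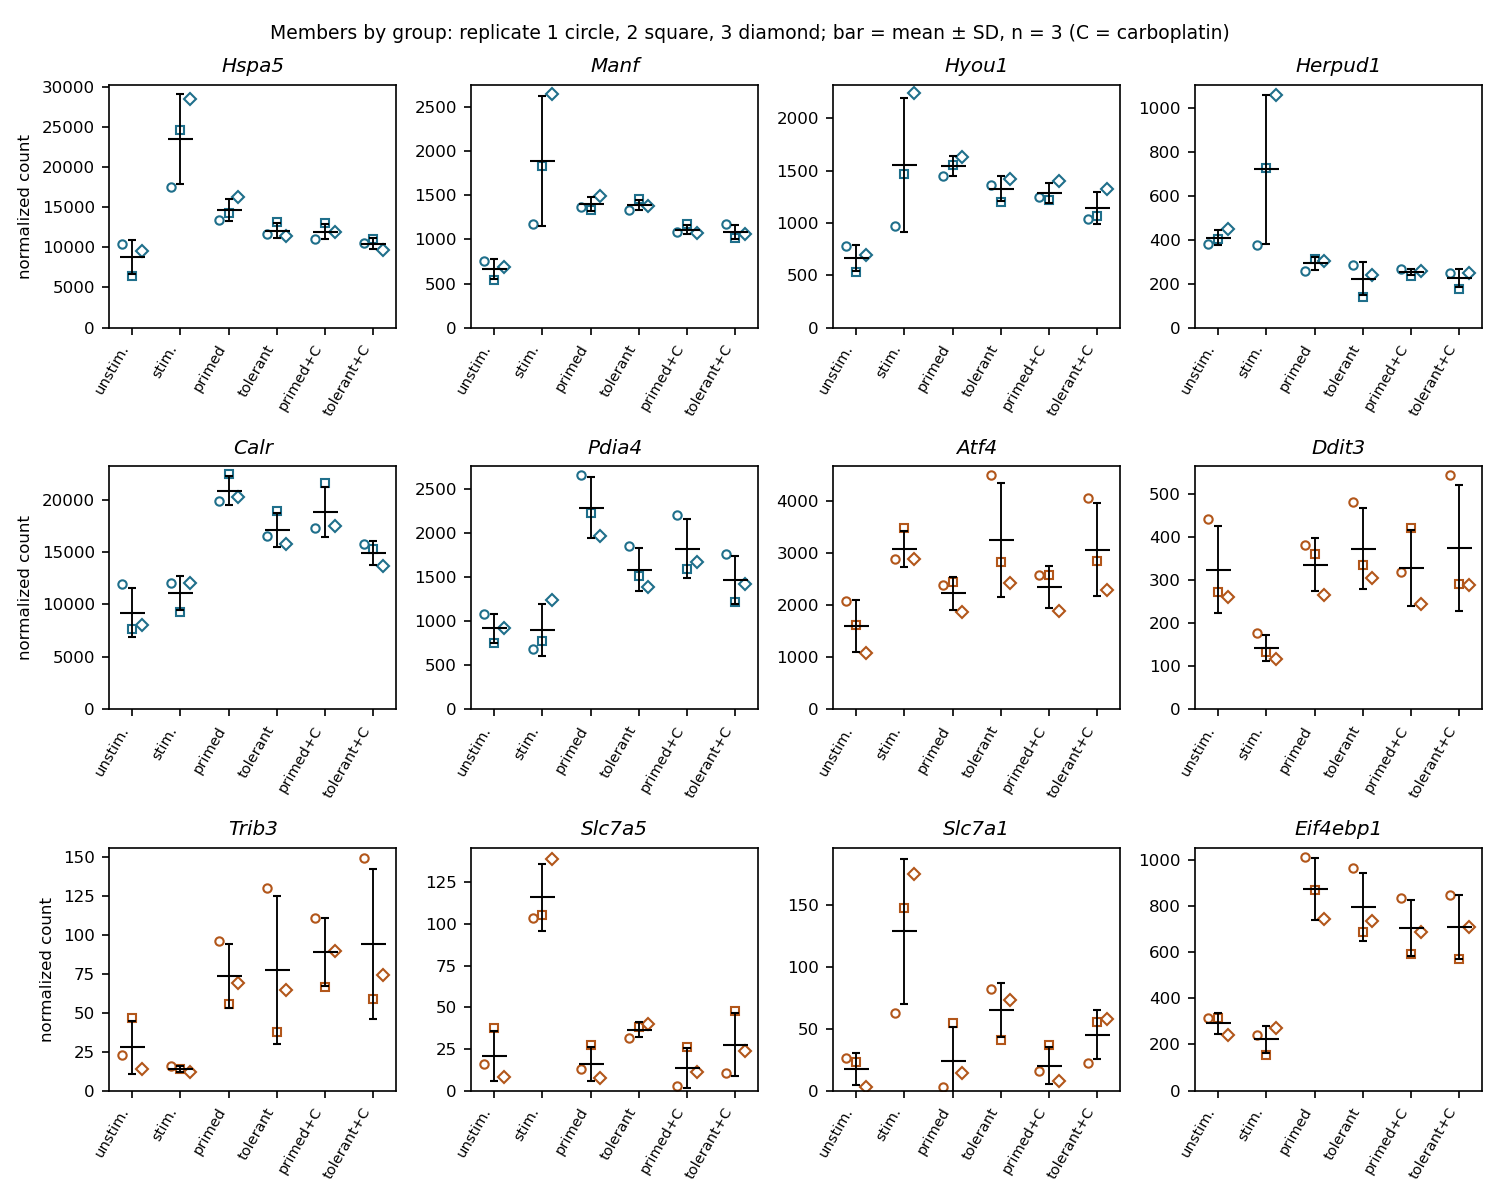
Normalized counts (linear axis from 0) of 6 ER arm genes (blue) and 6 ATF4 arm genes (brown) in each sample of the 6 groups; marker shape gives the replicate, and bars show the mean ± SD of 3 replicates, cut at 0. Hspa5, Manf and Herpud1 are highest in LPS-stimulated samples, Calr and Pdia4 in LPS-primed samples, and Ddit3 and Trib3 are lowest in LPS-stimulated samples.

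Priming with 100 ng/ml LPS for 24 h raised 10 of the 18 ER arm genes and lowered none, whereas 12.1% of all tested genes rose and 13.1% fell (25.2% in either direction). In the ATF4 arm, 6 of 18 rose and 3 fell. With library size alone, the ER arm had 7 higher and 1 lower. The median log2FC was 0.61 in the ER arm and 0.30 in the ATF4 arm, against -0.02 over all genes. These are the same unstimulated samples as in the comparison above, so their values enter both.

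The ER arm genes with the largest log2FC were not the ones of the single dose, apart from Hyou1. Pdia4, a disulfide isomerase, was at 1081, 750 and 918 normalized counts in unstimulated and at 2652, 2227 and 1965 in LPS-primed BMDMs (log2FC 1.32, SE 0.22, adjusted p = 0.000305). Hyou1 reached 1444, 1554 and 1628 (log2FC 1.21, SE 0.22, adjusted p = 0.000658). Calr rose from 11904, 7654 and 8023 to 19878, 22429 and 20264 (log2FC 1.18, SE 0.17, adjusted p = 5.74e-05). All LPS-primed samples lay above all unstimulated ones for these 3 genes. Hspa5 was at 13413, 14317 and 16216 in the primed samples, a smaller increase (log2FC 0.74, SE 0.18, adjusted p = 0.00664) but with no overlap.

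Pdia6 (1.14), Manf (1.08), Hsp90b1 (0.84), Creld2 (0.81), Dnajc3 (0.66) and Xbp1 (0.56) were the other ER arm genes that rose, given as log2FC. Xbp1 was at 1700, 1728 and 1749, above all unstimulated samples, though its call was lost without unstimulated replicate 2 or without any 1 of the LPS-primed samples (0.42 to 0.67). Calls were also lost for Creld2 without unstimulated replicate 2 or 3 or LPS-primed replicate 1 (0.68 to 1.12) and for Dnajc3 without unstimulated replicate 2 or LPS-primed replicate 2 or 3 (0.57 to 0.75). The sensors did not pass the test: Atf6 was at 258, 350 and 362 (log2FC -0.24), Ern1 at 169, 250 and 298 (-0.45) and Eif2ak3 at 342, 348 and 411 (-0.21), and each overlapped its unstimulated range. Edem1, a mannosidase-like degradation factor, Herpud1, Sdf2l1, Dnajb9, another co-chaperone of BiP, and Canx, the membrane lectin chaperone, were the remaining genes without a call. Herpud1 was lower without overlap at 259, 313 and 305 (log2FC -0.49, adjusted p = 0.249). For Canx, adjusted p was 0.0634, and 0.000689 with the replicate block.

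In the ATF4 arm, 4 of 8 tested genes that are neither synthetic enzymes nor transporters (regulators and the receptor Vldlr) rose and none fell. Of the 7 tested enzymes 1 rose and 3 fell. Of all tested genes, 12.1% rose and 13.1% fell, and the calls of the 3 lower enzymes were each lost without unstimulated replicate 1. Mthfd2 was at 168, 84.4 and 58.2 normalized counts in unstimulated and at 355, 320 and 307 in LPS-primed BMDMs (log2FC 1.66, SE 0.34, adjusted p = 0.00144). Eif4ebp1 rose from 316, 316 and 241 to 1012, 869 and 743 (log2FC 1.59, SE 0.22, adjusted p = 4.45e-05). Neither overlapped. Trib3, a pseudokinase that restrains ATF4 and CHOP, rose by 1.40, Atf5, a relative of ATF4, by 1.14, Slc3a2 by 0.97 and Ppp1r15a by 0.82.

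Phgdh fell from 87.9, 23.8 and 16.4 to 4.23, 10.3 and 14.1 normalized counts (log2FC -2.13, SE 0.71, adjusted p = 0.0344), and this size rests on unstimulated replicate 1: without it the log2FC was -1.05 and not called. Psat1, the enzyme after Phgdh in serine synthesis, fell by 1.05, and Shmt2, which passes a carbon from serine to folate, by 0.70. The calls of 5 of the 9 genes were lost on leaving out single samples. Trib3 was lost without unstimulated replicate 1 or 3 or LPS-primed replicate 1 or 3 (1.09 to 2.03), Psat1 without unstimulated replicate 1 or 2 or LPS-primed replicate 2 or 3 (-1.37 to -0.82), and Phgdh also without any 1 of the LPS-primed samples (-2.54 to -1.05 in all). Shmt2 was lost without unstimulated replicate 1 or LPS-primed replicate 3 (-0.83 to -0.56), and Ppp1r15a without unstimulated replicate 2 or 3 or LPS-primed replicate 1 or 3 (0.68 to 0.94). The number called was 5 without unstimulated replicate 1 and 4 without LPS-primed replicate 3, and in both cases none of them were lower.

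Atf4 itself was at 2388, 2438 and 1865 in LPS-primed BMDMs, overlapping the unstimulated range (log2FC 0.48, SE 0.26, adjusted p = 0.2), although the fit with the replicate block called it (log2FC 0.52, adjusted p = 0.0137). Ddit3 was at 382, 361 and 266, within the range of the unstimulated samples (log2FC 0.05, 95% interval -0.52 to 0.62). Reads of Shmt2 and Atf5, like those of Ddit3, Psph, Hspa5 and Pdia6, come from loci where a protein-coding gene lies on the opposite strand.

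**Figure D3:**
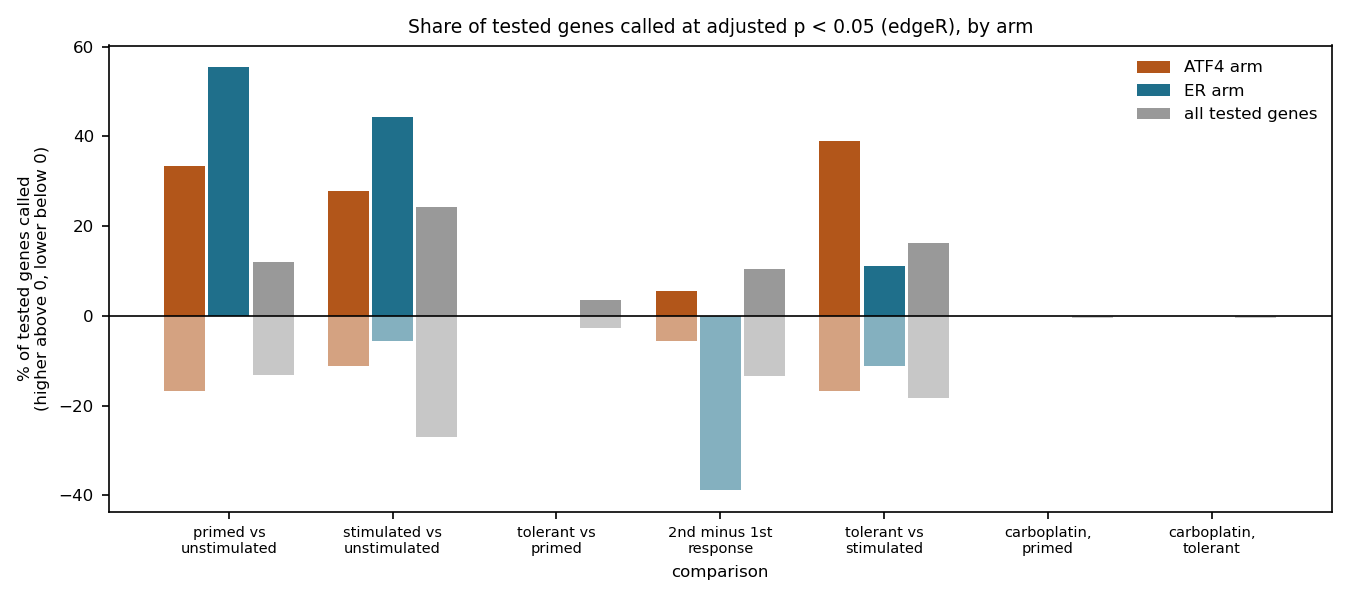
Percentage of tested genes called higher (above 0) or lower (below 0) at an adjusted p under 0.05 in 7 comparisons, for the ATF4 arm (n = 18), the ER arm (n = 18) and all 11305 tested genes. Among the higher calls after priming, both arms stand above all genes (ER arm 10 of 18 and ATF4 arm 6 of 18, against 12.1%). The ER arm is also above among the higher calls of the single dose (8 of 18 against 24.3%). It is above too among the lower calls of the second minus the first response (7 of 18 against 13.3%). The ATF4 arm is above among the higher calls of tolerant against stimulated cells (7 of 18 against 16.2%). Neither arm has a call in the carboplatin comparisons.

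The next question was what a second dose of LPS did to cells that were already primed. Between LPS-tolerant and LPS-primed BMDMs, no member of either arm passed the test, while 3.6% of all tested genes were higher and 2.71% lower (6.31% together). At an unadjusted p under 0.05 there were 1 ATF4 arm gene and 4 ER arm genes, against 21.1% of all genes, and DESeq2 called none. The ER arm leaned down, with 15 of 18 log2FC values below 0 and a median of -0.25 against -0.01 over all genes. The ATF4 arm was evenly split, 9 above and 9 below 0. The fit with the replicate block called 2 ATF4 arm genes as higher, Atf4 (log2FC 0.51, adjusted p = 0.0311) and Asns (0.77, 0.0340). It called 3 ER arm genes as lower, Sdf2l1 (-0.72, 0.0223), Xbp1 (-0.48, 0.0346) and Pdia4 (-0.53, 0.0496). The same fit called 1093 of all 11305 tested genes as higher and 941 as lower.

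In the LPS-tolerant samples, Hspa5 was at 11653, 13126 and 11417 normalized counts, all below the 13413 to 16216 of the LPS-primed samples (log2FC -0.28, 95% interval -0.64 to 0.08, adjusted p = 0.417). Xbp1 was at 1367, 1117 and 1251, also below every LPS-primed sample, and Eif2ak3 was at 213, 316 and 273, likewise lower without overlap (log2FC -0.45, adjusted p = 0.322). Atf6 (172, 331 and 353) and Ern1 (295, 287 and 285) overlapped the LPS-primed samples. Atf4 was at 4503, 2820 and 2427, where replicate 1 was the highest of all 18 samples, and Ddit3 was at 481, 334 and 305.

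The response of primed cells to 10 ng/ml LPS was then compared with that of unprimed cells, as the log2FC of LPS-tolerant over LPS-primed minus that of LPS-stimulated over unstimulated. In the ER arm, 7 of 18 genes were lower in this difference, none were higher and 11 were not called. Among all genes 13.3% were lower and 10.5% higher (23.8% together). The median of the ER arm was -0.53, against 0.06 over all genes. This compares responses and not levels, and 10 of the 18 genes were already higher after priming. Between LPS-tolerant and LPS-stimulated cells, 2 ER arm genes were higher and 2 lower, with a median of -0.02. In the ATF4 arm 1 gene was higher and 1 lower, with a median of 0.10.

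Hspa5 had the largest difference (-1.70, SE 0.26, adjusted p = 0.000126), between a log2FC of 1.42 in unprimed and of -0.28 in primed cells. Manf followed (-1.52, SE 0.29, adjusted p = 0.000933), at 1340, 1456 and 1374 in LPS-tolerant against 1371, 1338 and 1491 in LPS-primed samples, which do not differ beyond their spread. Hyou1 differed by -1.44 (SE 0.31, adjusted p = 0.00279) and was at 1365, 1195 and 1422 in the LPS-tolerant samples. In each of the 3 same-numbered sets of samples the difference was below 0 for these genes, and no omission of a single sample ended their calls. Creld2 (-1.25), Pdia6 (-1.22), Herpud1 (-1.22) and Xbp1 (-0.95) completed the list. The replicate block added Hsp90b1 (-0.60), Calr (-0.57) and Canx (-0.41), which made 10 lower ER arm genes, and Mthfd2 (-0.88) in the ATF4 arm. With the block, 1939 of all 11305 tested genes were higher and 2152 lower in the difference. The call of Herpud1 was lost in 9 of the 12 fits that left out 1 sample, all but those without LPS-primed replicate 1, LPS-tolerant replicate 1 or LPS-stimulated replicate 1 (-1.53 to -0.84).

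In the ATF4 arm, Ppp1r15a was lower in the difference (-1.36, SE 0.38, adjusted p = 0.0146): it was at 814, 597 and 646 in LPS-primed and at 658, 421 and 573 in LPS-tolerant samples, whereas the single dose had raised it. Without LPS-stimulated replicate 1 the difference was -0.87 and still called. Ddit3 was higher (1.34, SE 0.42, adjusted p = 0.0263), with a log2FC of -1.19 in unprimed and 0.15 in primed cells. Its call was lost without unstimulated replicate 1, LPS-primed replicate 3, LPS-tolerant replicate 1 or LPS-stimulated replicate 2 or 3 (1.05 to 1.52), which in all but the first case left 1 called gene in the arm. The transporters did not differ by the test and had a median difference of -1.24 over the 3 genes. The log2FC of Slc7a1 was 2.88 in unprimed and 1.46 in primed cells, with a difference of -1.42 and an SE of 1.07.

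**Figure D4:**
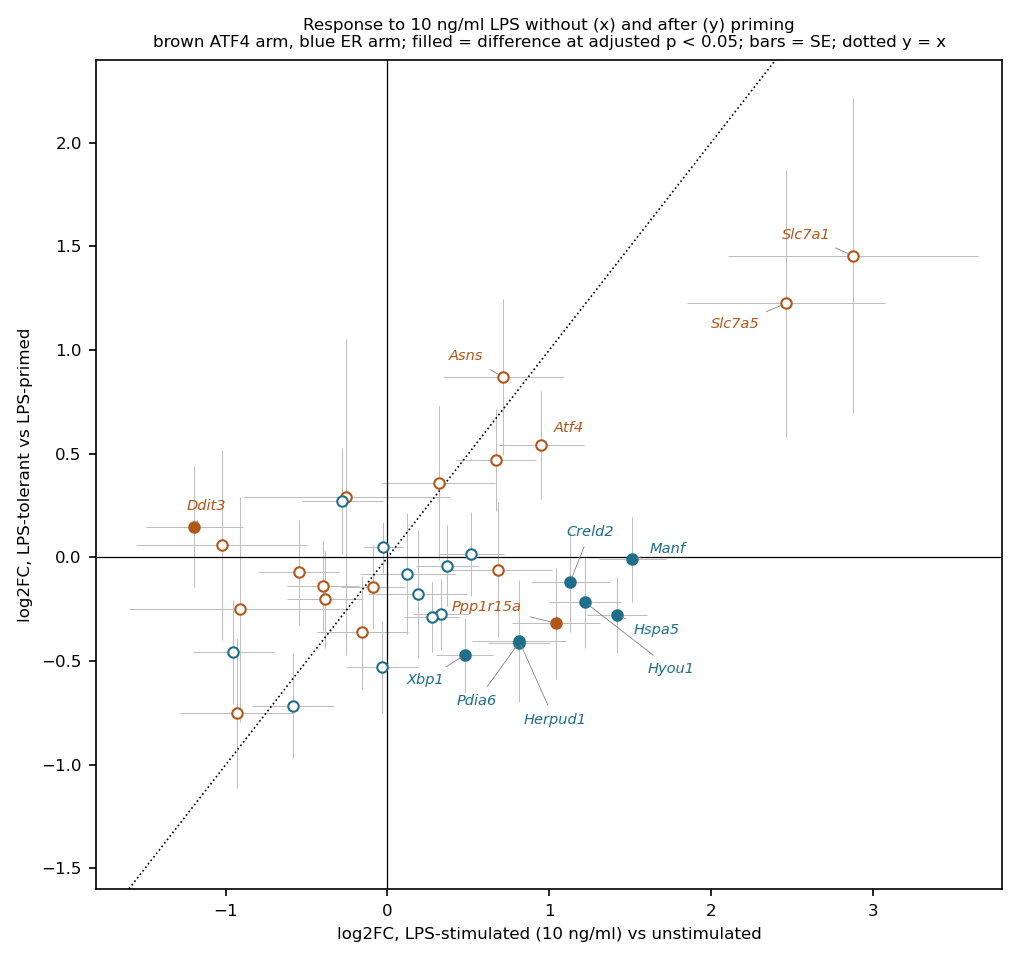
Log2FC of each tested member for 10 ng/ml LPS in unprimed cells (x axis) and in primed cells (y axis), with SE bars; filled points are those whose difference passed an adjusted p of 0.05, and the dotted line marks equal responses. The 7 filled ER arm genes lie right of 0 on the x axis and below 0 on the y axis, and Ddit3 lies left of 0.

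The ER arm was also described by whether a promoter held an ERSE or ERSE-II. Of the 10 ER arm genes with either element, 8 rose after priming, 7 rose after the single dose (median log2FC 0.81) and 6 were lower in the second minus the first response (median -1.22). Of the 8 without, 2 rose after priming (Pdia4 and Xbp1), 1 rose (Xbp1) and 1 fell (Eif2ak3) after the single dose (median -0.03), and 1 (Xbp1) was lower in the difference (median -0.17). Among all tested genes, 12.1% rose after priming, 24.3% rose and 26.9% fell after the single dose, and 13.3% were lower in the difference. All 10 genes with an element are chaperones, foldases or degradation factors, whereas the 8 without include Atf6, Xbp1, Ern1 and Eif2ak3. This split therefore overlaps with that of sensors and chaperones. The counts with and without an element describe 18 genes, some of which are textbook examples of the element. The difference between the 10 and the 8 genes was not tested. For 14 tested genes outside the 38 that hold either element, the median of the second minus the first response was 0.10, with 8 above 0.

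LPS-tolerant and LPS-stimulated BMDMs had received the same last dose for the same time. They differ in priming. Whether the LPS-stimulated cells had the same 24 h of culture and change of medium before their dose is not given in the sources used here. Any such difference cannot be told apart from that of priming. Here the ATF4 arm held more calls than the ER arm: 7 genes were higher and 3 lower in tolerant cells, against 2 and 2 in the ER arm and 16.2% higher and 18.3% lower (34.5% together) among all genes. The median log2FC was 0.20 in the ATF4 arm, -0.02 in the ER arm and 0.00 over all genes. Leaving out 1 sample took the ATF4 arm count from 10 to 6 without LPS-tolerant replicate 1, 5 without LPS-stimulated replicate 2 and 4 without LPS-stimulated replicate 3. The ER arm held 4 calls in each of these fits, so the contrast between the arms depends on single samples.

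Trib3 was at 130, 38 and 64.9 normalized counts in LPS-tolerant and at 15.5, 13.8 and 11.8 in LPS-stimulated samples (log2FC 2.48, SE 0.52, adjusted p = 0.00126). Eif4ebp1 was at 965, 687 and 736 against 240, 155 and 271 (log2FC 1.85, SE 0.23, adjusted p = 8.76e-06). Ddit3 was higher in tolerant cells by 1.39 (SE 0.30, adjusted p = 0.00159), and none of these 3 genes overlapped between the groups. Vldlr rested on few reads, 9, 7 and 8 against 3, 2 and 2 (log2FC 1.89, SE 0.65, adjusted p = 0.0310), and its call was lost without LPS-tolerant replicate 1 or 3 or LPS-stimulated replicate 2 or 3 (1.58 to 2.28).

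Atf5 (0.93), Mthfd2 (0.92) and Slc3a2 (0.78) were also higher. Atf5 and Slc3a2 lost their calls without LPS-tolerant replicate 1 or LPS-stimulated replicate 2 or 3 (0.67 to 1.15 and 0.53 to 0.89), and Mthfd2 without LPS-tolerant replicate 1 or any 1 of the LPS-stimulated samples (0.54 to 1.10, the lowest without LPS-tolerant replicate 1). The lower genes were Slc7a5 (-1.66), Psat1 (-1.01) and Shmt2 (-0.76). The call of Slc7a5 was lost on leaving out any 1 of the 6 samples (-1.73 to -1.51), and that of Psat1 without LPS-tolerant replicate 2 or 3 or LPS-stimulated replicate 2 or 3 (-1.29 to -0.82). Atf4 did not differ by the test (log2FC 0.08, 95% interval -0.43 to 0.59).

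In the ER arm, Herpud1 was at 285, 139 and 242 in LPS-tolerant against 377, 726 and 1060 in LPS-stimulated samples (log2FC -1.71, SE 0.30, adjusted p = 0.000275). Hspa5 was also lower (-0.96, SE 0.19, adjusted p = 0.000627), and the groups of both genes were apart. Pdia4 was higher, at 1850, 1505 and 1389 against 682, 767 and 1235 (log2FC 0.82, SE 0.22, adjusted p = 0.00839), and Calr was higher by 0.62. Of the sensors and Xbp1, none passed the test, but Atf6 (log2FC -0.65, adjusted p = 0.00282) and Xbp1 (-0.39, 0.0406) were lower with the replicate block. In that fit ATF4 arm calls also rose to 12 through Phgdh and Ppp1r15a, both lower. The block called 2588 of all 11305 tested genes as higher and 2792 as lower in tolerant cells.

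Carboplatin, a platinum drug that cross-links DNA, was given to ask what it changes in primed and tolerant macrophages. No member of either arm passed the test in LPS-primed or in LPS-tolerant BMDMs, where 0.372% (all lower) and 0.425% (0.0177% higher and 0.407% lower) of all genes did, rates at which fewer than 1 of 18 genes would be called. At an unadjusted p under 0.05 there were 1 ATF4 arm gene and 2 ER arm genes in the primed and 0 and 1 in the tolerant comparison, against 6.86% and 6.73% of all genes, and neither DESeq2 nor the fit with the replicate block called any member. None passed an adjusted p under 0.25 either, against 1.2% and 1.65% of all genes. The smallest adjusted p over the members was 0.452, for Sdf2l1 in LPS-primed cells (log2FC -0.70, 95% interval -1.20 to -0.20). The ER arm lay mostly below 0, at 15 of 18 genes in primed cells (median -0.23) and 14 of 18 in tolerant cells (median -0.16), where 5473 and 5508 of the 11305 tested genes were below 0 and the medians over all genes were 0.01 and 0.01. The ATF4 arm had medians of -0.10 and -0.14.

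With carboplatin, Hspa5 was at 11034, 12971 and 11866 in primed cells, below every primed sample without it (log2FC -0.29, 95% interval -0.65 to 0.07), and at 10585, 11067 and 9667 in tolerant cells (-0.21, -0.57 to 0.15), again below. Pdia6 was the only ER arm gene at an unadjusted p under 0.05 in both, with log2FC values of -0.49 (adjusted p = 0.535) and -0.40 (adjusted p = 0.738). Atf4 was at 2582, 2571 and 1878 in primed cells (log2FC 0.07, 95% interval -0.44 to 0.58) and at 4050, 2854 and 2294 in tolerant cells (-0.08, -0.59 to 0.43). Ddit3 was at 319, 422 and 246 in primed cells (-0.03, -0.60 to 0.54) and at 544, 291 and 289 in tolerant cells (0.00, -0.57 to 0.57).

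The intervals of Atf4 and Ddit3 include 0 and leave room for changes of up to about 0.6 on the log2 scale in either direction. Xbp1 was at 1842, 1579 and 1747 with carboplatin in primed and at 1246, 1095 and 1227 in tolerant cells. Atf6 was at 197, 283 and 226 and at 134, 253 and 281, Ern1 at 231, 233 and 295 and at 210, 263 and 252, and Eif2ak3 at 297, 362 and 350 and at 209, 265 and 263. All of these overlapped the samples without the drug except Ern1 in tolerant cells, which was lower in each sample (log2FC -0.26, 95% interval -0.76 to 0.24). The difference between the effects in tolerant and primed cells had no member at an adjusted p under 0.05, at an unadjusted p under 0.05 (1.16% of all genes) or in DESeq2, and 0 of the 11305 tested genes passed. The 8 p53 target genes examined as a check on the drug had a median log2FC of 0.76 in primed and 0.34 in tolerant cells, with 7 of 8 above 0 in each. None were called, and 2 were called as higher in primed cells with the replicate block. The block called 27 of all 11305 tested genes as higher there.

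**Figure D5:**
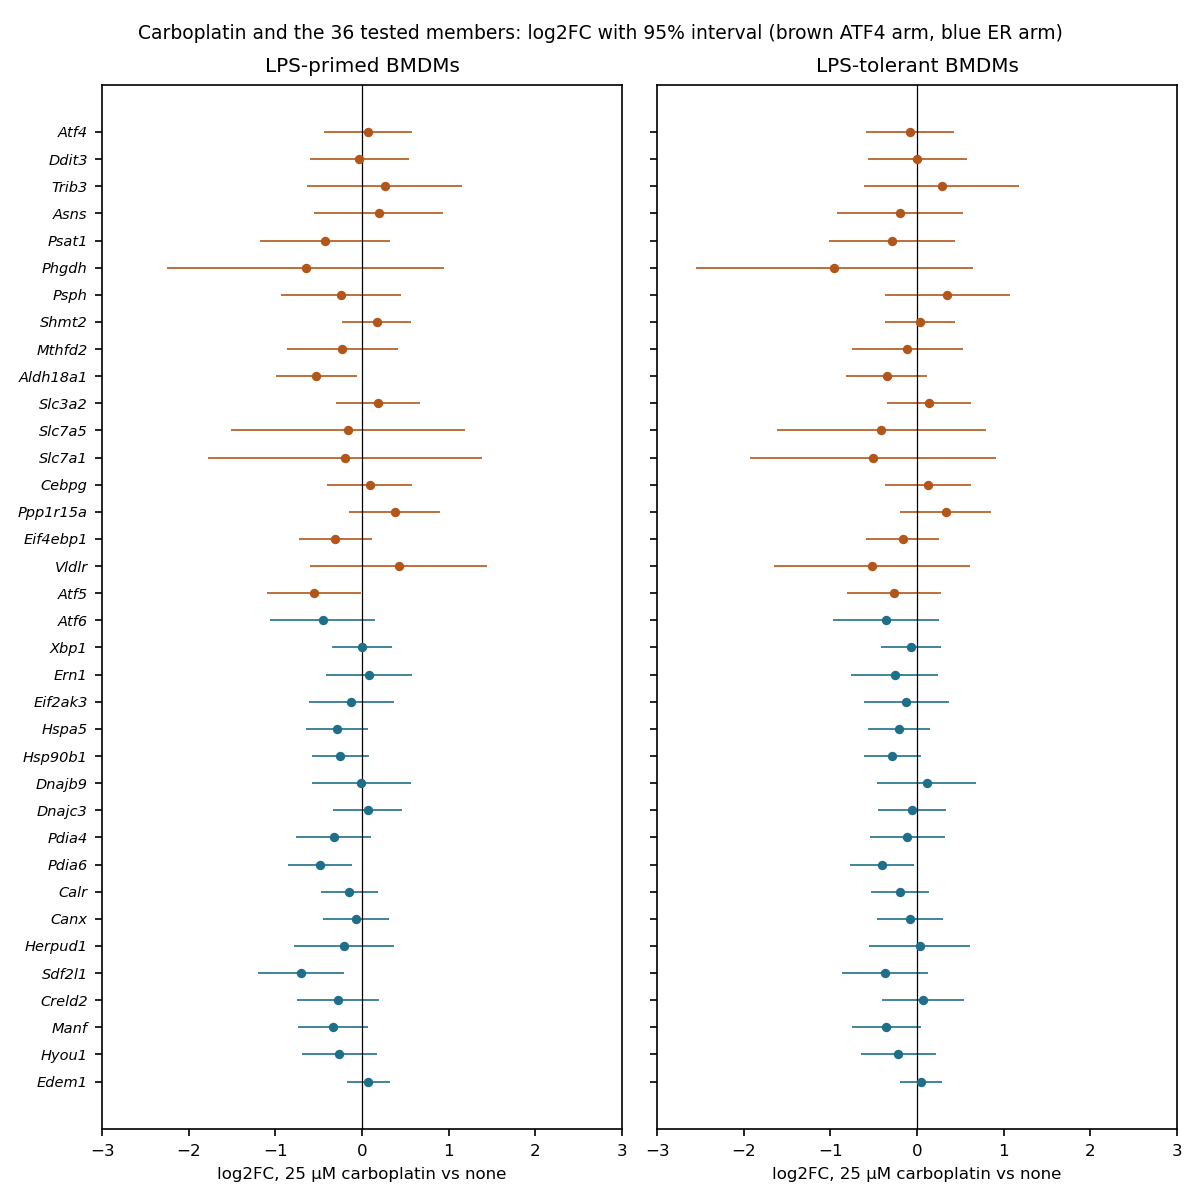
Log2FC for 25 µM carboplatin against none in LPS-primed (left) and LPS-tolerant (right) BMDMs for the 36 tested members, with 95% intervals. Most ER arm genes (blue) lie left of 0 in both panels, and no member passed the test.

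Under the limits of the study, which add an absolute log2FC over 2, the members called were Phgdh after priming, Slc7a5 and Slc7a1 after the single dose and Trib3 in tolerant against stimulated cells. All genes passed these limits in 7.47%, 12% and 8.04% of cases, in 0.681% between tolerant and primed cells, in 8.01% for the difference of responses and in 0.265% and 0.389% for carboplatin, where no member did.

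Other genes of the same pathways were taken from lists. Of 44 tested ER folding and degradation genes outside the 38, 16 rose and none fell after priming, where 12.1% of all genes rose and 13.1% fell. After the single dose 15 rose and 1 fell, where 24.3% of all genes rose and 26.9% fell. Counted in either direction, the 16 calls after the single dose are below the 51.2% of all genes. Ero1a, the oxidase that recharges disulfide isomerases, rose by 3.44 and 1.95, and P4hb, the main disulfide isomerase, rose by 1.61 after priming. None of the 44 were called between LPS-tolerant and LPS-primed cells, against 6.31% of all genes. In the second minus the first response 7 were lower and none higher, where 13.3% of all genes were lower and 10.5% higher. Between LPS-tolerant and LPS-stimulated cells 7 were higher and 3 lower in the tolerant ones, where 16.2% of all genes were higher and 18.3% lower. With the replicate block the counts were 25 higher and 1 lower after priming, 22 and 4 after the single dose, 0 and 16 in the difference of responses and 11 and 7 between tolerant and stimulated cells. In the same order, the block called 2132 and 2235, 3331 and 3817, 1939 and 2152, and 2588 and 2792 of all 11305 tested genes.

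Of 30 tested genes in a further ATF4 list, 9 rose and none fell after priming, and 16 rose and 5 fell after the single dose. In the second minus the first response 2 were higher and 9 lower, and 4 were higher and 8 lower in tolerant than in stimulated cells. In the same order, 12.1% of all genes were higher and 13.1% lower, 24.3% and 26.9%, 10.5% and 13.3%, and 16.2% and 18.3%. In either direction 25.2%, 51.2%, 23.8% and 34.5% of all genes were called. Slc7a11, the cystine transporter, rose by 6.27 after priming and by 6.28 after the single dose, and Ddit4, an inhibitor of mTORC1, by 3.34 and 4.90. Between tolerant and primed cells 2 genes were higher, Tubb6 (1.59) and Eif2s1 (0.50), and Eif2ak1, which encodes the eIF2 alpha kinase HRI, was lower (-0.41). With the block 5 were higher and 6 lower. Of all genes, 3.6% were higher and 2.71% lower there, and with the block 1093 and 941 of 11305. Of the 20 cytosolic aminoacyl-tRNA synthetases, many of them ATF4 targets, 9 rose and 2 fell after the single dose, 3 rose and 1 fell after priming, 6 were lower in the difference, and 1 was higher and 3 lower in tolerant than in stimulated cells, beside the same shares of all genes. None of these 3 lists had a call in any carboplatin comparison. With the block 1 ER folding gene and 1 ATF4 gene were lower in each of primed and tolerant cells, where 173 and 162 of all 11305 tested genes were lower.

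The order of replicates was shared by many members. In LPS-tolerant BMDMs, replicate 1 was the highest of the 3 samples for 16 of 18 ATF4 arm genes, against 38.1% of all tested genes, and in unstimulated BMDMs for 14 of 18, against 39.3%. The ER arm was highest in replicate 3 for 13 of 18 genes in LPS-stimulated (28.3% of all genes) and for 12 of 18 in LPS-primed BMDMs (32.7%). Leaving out replicate 1 in every group, an alternative chosen after the data were seen, kept 48 of the 58 member calls.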

How the data were processed

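The authors prepared stranded mRNA libraries from BMDMs, sequenced them as paired ends, used HISAT2 with GRCm39 for alignment and HTSeq for counting; DESeq2 is also named in the submitters' processing notes. The deposited values are raw counts of read pairs per gene. For HISAT2, HTSeq and DESeq2 no version is given, and neither the annotation nor the strand setting of counting is given, in the sources used here. The sample labels name carboplatin together with the first LPS dose and give no order of addition. The study's methods place carboplatin 1 h before that dose. The 3 h of the single dose comes from the study's supplementary scheme. Rows that name no gene held 41.5% to 46.9% of all counts per sample and were left out.

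All 18 samples were fitted together in edgeR 4.0.16 (R 4.3.3) with a coefficient per group, TMM factors and filterByExpr (minimum count 10, minimum total count 15). Comparisons used the quasi-likelihood F test, with Benjamini-Hochberg adjustment over the 11305 genes tested, and a call is an adjusted p under 0.05 with no fold limit. Dividing the size of the log2FC by the root of F gave its SE, and 95% intervals use the normal quantile. Counts were normalized to the average TMM-scaled library size. No pair of replicates agreed within counting noise.

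The members and lists were chosen with earlier results of these data known. Values per sample were given for Atf4, Ddit3, Atf6, Xbp1, Ern1, Eif2ak3 and Hspa5 and, in each comparison and arm, for the 3 called genes with the largest absolute log2FC; other values per sample (Ppp1r15a and Herpud1) were chosen after they were seen. Other lists were limited to 3 called genes each. Same-numbered samples of the 2 groups compared deviated together from their group means in every pair (correlations across genes 0.167 to 0.541). What a replicate number marks is not given in the sources used here. The main fit leaves the number out, so a fit with it as a block was added. Alternatives were RLE size factors, library size alone, no filter, DESeq2 1.42.0, the samples of the compared groups only, the limits of the study (absolute log2FC over 2, with an adjusted p under 0.25 for carboplatin), an adjusted p under 0.25 alone for carboplatin, and leaving out samples.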

Additional observations from a re-analysis of the deposited data

Results flagged for a closer look

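For 9 of the 36 tested members, the response to 10 ng/ml LPS differed between primed and unprimed cells. This was a test of the difference itself (edgeR, contrast of 4 groups, adjusted p under 0.05). Of all 11305 tested genes, 23.8% were called in this contrast (10.5% higher and 13.3% lower), so the count for the members is near the share of all genes. The difference, as log2FC in primed minus log2FC in unprimed cells, was -1.70 for Hspa5, -1.52 for Manf, -1.44 for Hyou1, -1.36 for Ppp1r15a, -1.25 for Creld2, -1.22 for Pdia6, -1.22 for Herpud1, -0.95 for Xbp1 and 1.34 for Ddit3. The second response also includes a change of medium, whose part was not tested.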

How the results depend on the processing

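Of the 58 member calls, all 58 were kept with RLE size factors, with DESeq2 and with the replicate block, 56 without the filter, 48 with library size alone and 4 under the limits of the study; no log2FC of a called member changed sign. In fits of the compared groups alone, 49 of 57 were kept, and 1 could not be fitted because its gene failed the filter there. Library size alone gave 5 higher and 3 lower ER arm genes and 4 and 6 ATF4 arm genes after the single dose and 7 and 1 ER arm genes after priming; it moved the median of all genes by -0.24 after priming, by -0.34 after the single dose and by 0.24 in the second minus the first response. With the replicate block, which treats same-numbered samples as paired, the single dose called 11 ATF4 arm genes, and tolerant against primed cells 2 ATF4 and 3 ER arm genes. The block also called more of all 11305 genes than the main fit. It called 3331 higher and 3817 lower after the single dose, and 1093 higher and 941 lower between tolerant and primed cells. Fits of the compared groups alone gave 1 ER arm gene in tolerant against primed cells. Under the study's limits, ATF4 and ER arm calls were 1 and 0 after priming, 2 and 0 after the single dose, 0 and 0 in the difference of responses and 1 and 0 between tolerant and stimulated cells. Leaving out 1 sample gave 4 to 7 (ATF4) and 7 to 11 (ER) after priming, 5 to 7 and 6 to 9 after the single dose, 1 to 2 and 6 to 7 in the difference of responses, 4 to 8 and 4 to 6 between tolerant and stimulated cells, and 0 to 0 elsewhere; a group left with 2 samples shares the spread of the others. Without replicate 1 in any group, priming called 5 ATF4 arm genes; with the block added, tolerant against primed cells gave 2 ER arm genes, the difference of responses 5 ATF4 arm genes, and tolerant against stimulated cells 9 ER arm genes. These 2 settings were chosen after the data were seen, and the cause of each move was not tested.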

Other observations

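The ERSE and ERSE-II were also found in the promoters of 28 genes outside the 38, of which 14 were tested. After priming, 4 of these rose and 1 fell, where 12.1% of all tested genes rose and 13.1% fell (25.2% together). After the single dose of LPS 5 rose and 3 fell, where 24.3% of all tested genes rose and 26.9% fell (51.2% together). The median log2FC of the 14 genes was 0.27 after priming and 0.13 after the single dose. Dnajb11, an ER co-chaperone, rose by 0.67 after priming, and in the second minus the first response 1 gene was higher and 2 lower, against 23.8% of all genes called, with a median of 0.10 and 8 of 14 above 0; the lower genes include Syvn1 (-1.11), the ubiquitin ligase of ER-associated degradation. Both genes are also on the list of other ER folding genes and were named after their values were seen. The difference between these genes and the ER arm was not tested.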
